A study of Mus musculus with 30 samples.

Results

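The genes described here are 10 markers of fibroblasts and pericytes, the cells that build the matrix of a tissue and that wrap its small vessels. They were taken by name and matched to their identifiers among the 53431 genes of the count table, and all 10 were found. They are Pdgfra and Pdgfrb (receptors for platelet-derived growth factors), Acta2 (smooth muscle alpha-actin), Fap (a serine peptidase of the cell surface), Postn (periostin), Dcn (decorin), Lum (lumican), Thy1 (CD90), Pdpn (podoplanin) and Rgs5 (a regulator of G-protein signaling). They were listed by name, and the rule sets no threshold on a measured value.

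RNA-seq was performed on 30 libraries of CT-26 and Colon 26, murine colon carcinoma cell lines from the BALB/c strain. For each line there were 3 libraries of cultured cells, and 4 tumors each of 100, 400 and 800 mm3, grown from cells implanted in the right flank of BALB/c mice (females), whose age the labels do not give. The tumors were taken as untreated, since no label assigns an antibody to any sample, and this was not checked further. Each model is 1 cell line, and the host is immunocompetent. A tumor library is bulk RNA of tumor cells and host cells together, so fewer cells of a type and less RNA per cell cannot be told apart. The libraries held 21384730 to 39722586 counts.

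Fibroblasts in a tumor deposit collagen and small leucine-rich proteoglycans such as decorin and lumican, and a contractile subset carries stress fibers of smooth muscle actin. Pericytes are recruited to new vessels by PDGF-B from endothelial cells through the receptor PDGFRB, and RGS5 is one of their best known markers. None of these genes is exclusive to stroma. PDPN is also made by many tumor cells and lymphatic vessels, THY1 by mouse T cells, and both PDGF receptors by mesenchymal-like tumor cells.

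The first question was which of the 10 genes the tumor cells themselves expressed in culture. The unit for levels is FPKM, fragments scaled to the length of the gene and the depth of the library, which allows genes to be compared. Expressed was taken as an FPKM of at least 1 in all 3 cultures of a line. By this rule CT-26 cells expressed 4 of the genes, Pdgfra, Pdgfrb, Pdpn and Dcn, and Colon 26 cells expressed 3, Pdgfra, Pdgfrb and Pdpn. In both lines Lum, Thy1 and Rgs5 had at most 3 counts in every culture. Acta2, Fap and Postn were measured in between, at no more than 0.249 FPKM in any culture.

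**Figure D1:**
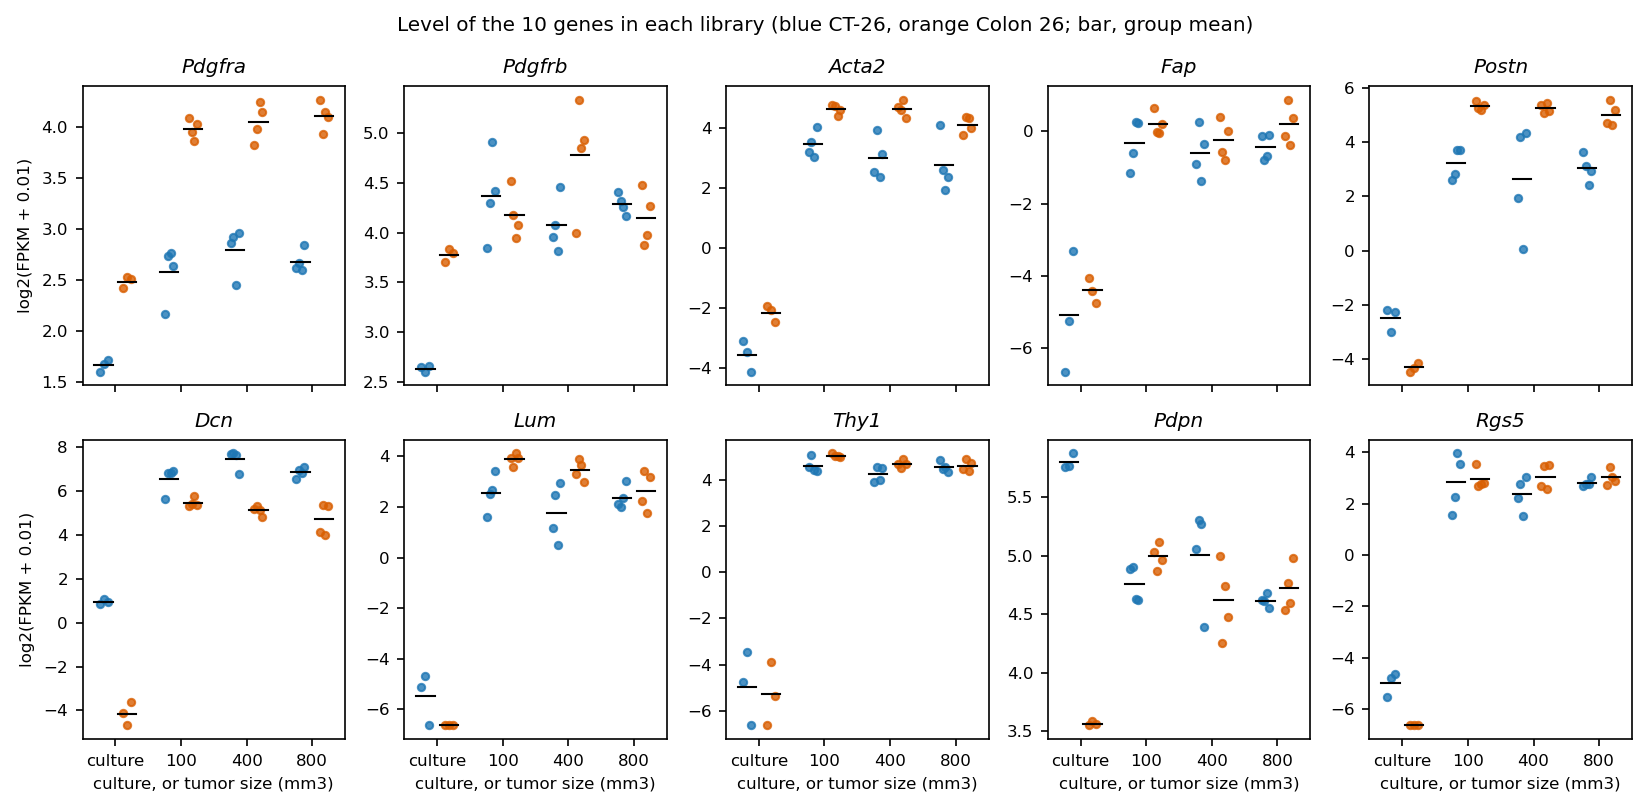
Level of each of the 10 genes as log2(FPKM + 0.01), by library. Each panel is 1 gene with its own vertical scale, the horizontal axis gives culture or tumor size in mm3, blue points are CT-26, orange points are Colon 26, and bars are group means. Pdgfra, Pdgfrb and Pdpn were at 3.02 FPKM or more in every culture, and the other genes lay far lower in culture than in tumors, also Dcn in CT-26 culture at 1.78 to 2.14 FPKM.

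Podoplanin, a membrane mucin, had the highest level of the 10 genes in CT-26 culture, and in Colon 26 culture it came after Pdgfrb. Its FPKM was 54.2, 54.5 and 58.7 in the CT-26 cultures and had a mean of 11.8 ± 0.147 (SD, n = 3) in the Colon 26 cultures. The lines did not overlap, and Pdpn was 4.76-fold lower in Colon 26 cells (log2 fold change -2.25, SE 0.04, adjusted p 7.6e-17). Here and below, fold changes and adjusted p-values are from edgeR's quasi-likelihood test with Benjamini-Hochberg adjustment over all genes tested, and a gene was called where the adjusted p did not exceed 0.1 and the log2 fold change reached 1 or -1.

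Both PDGF receptors were expressed in every culture, and both were higher in Colon 26 cells. Pdgfrb had 6.25, 6.06 and 6.29 FPKM in CT-26 and 13.0, 14.3 and 13.9 in Colon 26, a log2 fold change of 1.13 (SE 0.04, adjusted p 2.1e-13). For Pdgfra the cultures gave 3.02, 3.19 and 3.27 against 5.34, 5.75 and 5.68 FPKM. This difference passed the adjusted p but not the fold limit (log2 fold change 0.76, SE 0.05, adjusted p 2.3e-10).

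Decorin, a proteoglycan that binds collagen fibrils, divided the lines most sharply. CT-26 cultures had 67, 105 and 81 counts, or 1.78, 2.14 and 1.92 FPKM, whereas Colon 26 cultures had 3, 2 and 5 counts. Dcn was 38.3-fold lower in Colon 26 cells (log2 fold change -5.26, SE 0.30, adjusted p 9.2e-11). Periostin, a matricellular protein, was also called lower in Colon 26 cells (log2 fold change -2.12, SE 0.41, adjusted p 2.0e-04), but on 10 to 15 counts against 4 or 5. That call was lost in a fit of all 30 libraries (-2.17, adjusted p 0.27) and in limma on log2(FPKM + 0.1), where the value was -0.94.

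In all, 5 of the 10 genes had enough counts in culture to be tested. Of these, 1 was called higher in Colon 26 (10.6% of all 14334 genes tested were) and 3 were called lower (12.3% of all genes tested). The libraries of the cultured lines were numbered in different runs of numbers, and those of Colon 26 were sequenced more deeply, so line and batch cannot be told apart in this comparison. The labels do not say that cultures or tumors of a group were separate experiments, and p-values then measure only the spread between these libraries.

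The next comparison asked how far the genes stood above culture in the smallest tumors, which hold host tissue. Most stood far above it. In CT-26 tumors of 100 mm3, 8 of the 10 genes were called higher than in culture and 1 lower, where 22.2% and 10.1% of all genes tested were called higher and lower. In Colon 26 tumors of that size 9 were called higher and none lower, against 20.8% and 6.11% of all genes tested. The culture libraries of each line were numbered in another run of numbers than its tumors. Tissue and batch therefore cannot be told apart in this step, nor in its difference between the models.

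For the genes with almost no counts in culture, the rise can be given only as a lower bound. Thy1, a small glycoprotein anchored in the membrane, had 20.7 to 33.7 FPKM in the 4 small CT-26 tumors and 32.2 to 35.7 in those of Colon 26, with 0 to 2 counts per culture. Set against the value of 3 counts per library, it was at least 349-fold higher in CT-26 tumors and at least 704-fold higher in Colon 26 tumors. Rgs5 was at least 287-fold and at least 400-fold higher, and Lum at least 128-fold and at least 452-fold higher, by the same reckoning. No library of a small tumor had fewer than 184 counts of any of the 3 genes.

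Acta2 rose in both models, by 7.15 on the log2 scale in CT-26 (SE 0.39, adjusted p 2.1e-06) and by 6.86 in Colon 26 (SE 0.15, adjusted p 2.3e-09). The difference between these rises was -0.35 with an SE of 0.57 (adjusted p 0.67), so an interval of 2 SE to either side runs from -1.48 to 0.79. Fap rose by 4.54 (SE 0.75, adjusted p 7.7e-04) and 5.01 (SE 0.31, adjusted p 8.5e-07), with levels that stayed low even in tumors, 0.439 to 1.18 FPKM in CT-26 and 0.961 to 1.56 in Colon 26 at 100 mm3.

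Postn and Dcn rose more in Colon 26. Postn was 6.06, 7.02, 13.2 and 13.0 FPKM in the small CT-26 tumors and 45.2, 38.0, 35.8 and 40.8 in those of Colon 26. The rise over culture was 5.82 on the log2 scale in CT-26 (SE 0.41, adjusted p 7.0e-06) and 9.99 in Colon 26 (SE 0.15, adjusted p 4.5e-10). For Dcn it was 5.67 (SE 0.36, adjusted p 4.2e-06) and 9.79 (SE 0.23, adjusted p 3.6e-09). Tested as an interaction, the rise was larger in Colon 26 by 4.11 for Postn (SE 0.79, adjusted p 7.9e-04) and by 4.07 for Dcn (SE 0.72, adjusted p 4.0e-04). The cultures of Colon 26 had 5 counts or fewer of either gene, so the size of these rises rests on very few reads. With limma on log2(FPKM + 1), which shrinks low values, the difference for Dcn was 0.42 and not called (adjusted p 0.48). Lum was not called for such a difference by edgeR, and DESeq2 called it (4.34, adjusted p 0.013).

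Pdpn went opposite ways. In CT-26 it fell from a mean of 55.8 ± 2.52 FPKM (SD, n = 3) in culture to 27.2 ± 2.96 (SD, n = 4) in the small tumors, and in Colon 26 it rose from 11.8 ± 0.147 to 32.0 ± 2.36. The fall was just past the fold limit (log2 fold change -1.01, SE 0.10, adjusted p 5.3e-05), and leaving out CT-26 tumor 100 replicate 3 or 4 or CT-26 culture replicate 3 brought it to -0.95, -0.96 or -0.99, no longer called. The rise in Colon 26 was 1.49 (SE 0.06, adjusted p 7.4e-08), and the difference between the models was 2.46 (SE 0.13, adjusted p 1.1e-08). From lines that differed 4.76-fold, the tumors thus came to levels that overlapped.

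The receptors passed the fold limit in different models. Pdgfra rose by 1.54 in Colon 26 (SE 0.06, adjusted p 3.1e-08), and its value in CT-26 was 0.91 (SE 0.14, adjusted p 5.0e-04), short of the fold limit. It passed that limit and was called without CT-26 tumor 100 replicate 1. Pdgfrb rose by 1.78 in CT-26 (SE 0.21, adjusted p 1.1e-04), with a value of 0.45 in Colon 26 (SE 0.12, adjusted p 0.0071), also short of the limit. The rise of Pdgfrb was smaller in Colon 26 by interaction (-1.38, SE 0.25, adjusted p 5.5e-04), while that of Pdgfra did not reach the fold limit for a difference (0.58, SE 0.15, adjusted p 0.0072).

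Thus 4 of the 10 genes, Pdgfrb, Postn, Dcn and Pdpn, changed by model in their step from culture to tumor, beside 17.6% of all genes tested. For the genes that the tumor cells express, the part of a tumor's RNA that comes from tumor cells and the part from host cells cannot be told apart in these libraries.

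**Figure D2:**
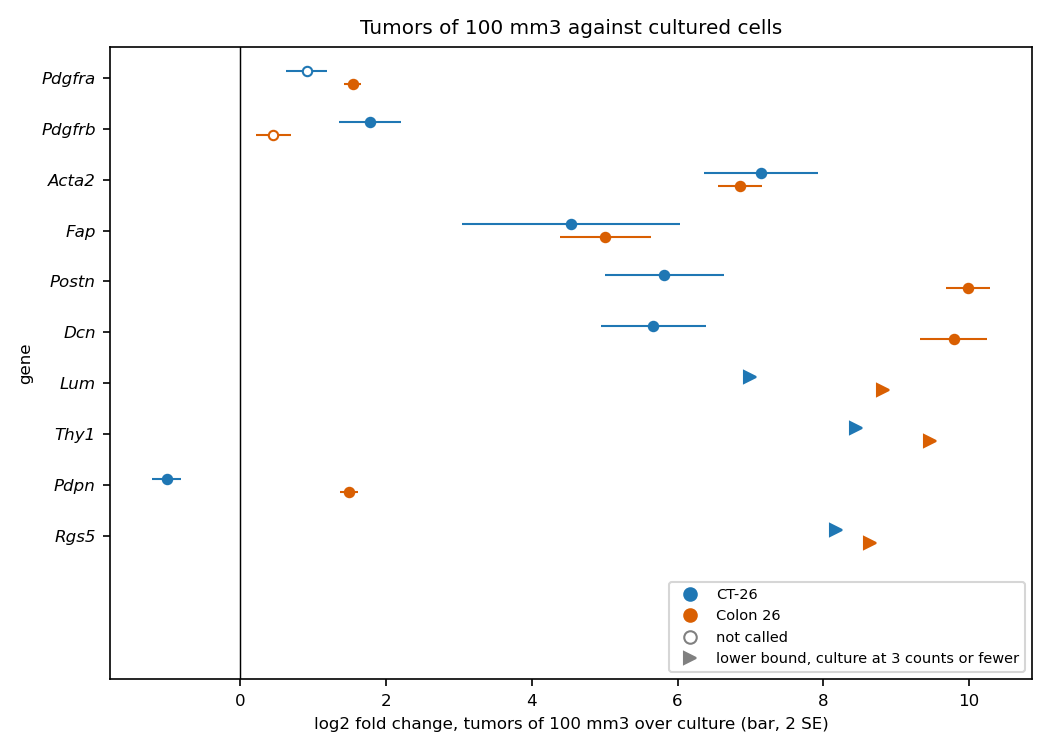
Log2 fold change of each gene in tumors of 100 mm3 over cultured cells of the same line, with bars of 2 SE. Blue is CT-26, orange is Colon 26, filled circles are called, open circles are not, and triangles mark lower bounds for genes with 3 counts or fewer in every culture. Pdpn is the gene whose symbols lie on opposite sides of 0, at -1.01 and 1.49.

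The tumors of the models were then compared at each size. Some genes were higher in Colon 26, others gave no called difference, and decorin alone of the 10 was called lower in Colon 26 tumors. At 100 mm3, 4 genes were called higher in Colon 26 (6.17% of all genes tested) and 1 lower (7.06%). At 400 mm3 the counts were again 4 (6.48%) and 1 (7.79%), and at 800 mm3 they were 3 (6.50%) and 1 (7.62%). Each tumor group had consecutive library numbers of its own, those of CT-26 before those of Colon 26. A batch that follows these numbers could not be told apart from model or tumor size.

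**Figure D3:**
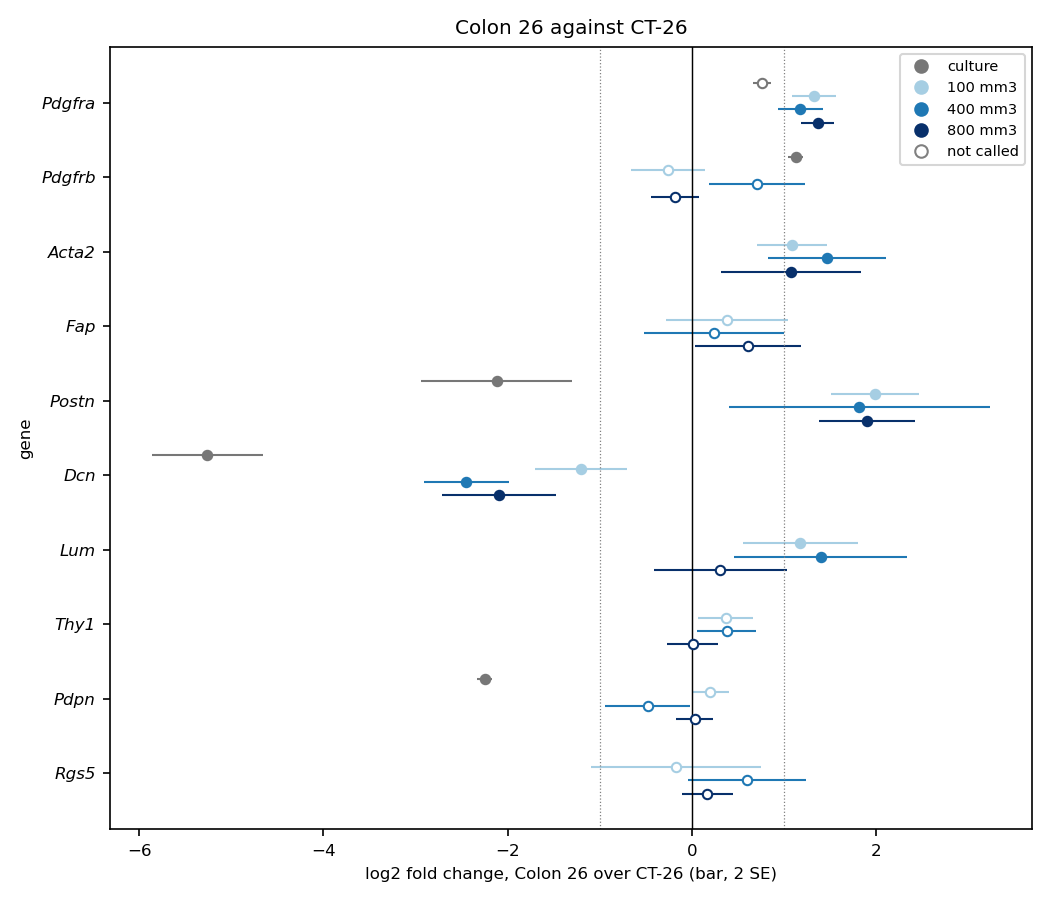
Log2 fold change of Colon 26 over CT-26 for each gene in culture and in tumors of 100, 400 and 800 mm3, with bars of 2 SE. Filled symbols are called, open symbols are not, dotted lines mark 1 and -1, and genes too low to test in culture have no grey symbol. Pdgfra, Acta2 and Postn lie to the right of 1 at all 3 sizes, Dcn lies to the left of -1 throughout, and Pdgfrb, Fap, Thy1, Pdpn and Rgs5 are open at all 3 sizes.

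Pdgfra, the receptor that marks most fibroblasts, differed with the least spread. CT-26 tumors ranged from 4.49 to 7.76 FPKM over all sizes (median 6.48, n = 12) and Colon 26 tumors from 14.2 to 19.3 (median 16.7, n = 12), with no overlap. The log2 fold changes were 1.33 (SE 0.12, adjusted p 3.1e-05), 1.18 (SE 0.12, adjusted p 1.0e-04) and 1.37 (SE 0.09, adjusted p 1.7e-06) at 100, 400 and 800 mm3. The cultured cells already differed in the same direction, by 0.76.

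Postn was likewise higher in every Colon 26 tumor than in any CT-26 tumor, at 24.4 to 47.2 FPKM against a median of 8.25 and a lowest value of 1.04 in CT-26, where the highest tumor stood 19.3-fold above the lowest. At 800 mm3 the CT-26 tumors had 12.4, 8.78, 5.34 and 7.71 FPKM and the Colon 26 tumors 25.7, 47.2, 24.4 and 35.8. The log2 fold changes were 1.99 (SE 0.24, adjusted p 1.9e-04) at 100 mm3 and 1.90 (SE 0.26, adjusted p 2.0e-04) at 800 mm3. In culture the order was the other way round, though at no more than 0.210 FPKM.

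At 400 mm3 the CT-26 tumors were divided, with 3.78 and 1.04 FPKM of Postn in replicates 1 and 3 and 18.1 FPKM or more in the others. The log2 fold change of 1.82 had an SE of 0.71 and an adjusted p of 0.065. It was no longer called when CT-26 tumor 400 replicate 1 (adjusted p 0.15) or Colon 26 tumor 400 replicate 2, 3 or 4 (adjusted p 0.10, 0.12 and 0.10, each just over the limit) was left out.

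Acta2, which marks contractile fibroblasts, pericytes and smooth muscle, was 13.4 to 30.6 FPKM in Colon 26 tumors and 3.78 to 16.9 in CT-26 tumors. The groups were apart at 100 mm3, where CT-26 had 9.15, 11.5, 8.19 and 16.1 FPKM and Colon 26 had 21.1 to 27.3. They were apart at 400 mm3 too, and overlapped at 800 mm3, where CT-26 tumor 800 replicate 1 stood at 16.9 and the other 3 between 3.78 and 6.04.

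The log2 fold changes of Acta2 were 1.09 (SE 0.19, adjusted p 0.0016), 1.47 (SE 0.32, adjusted p 0.0055) and 1.08 (SE 0.38, adjusted p 0.037). The first fell to 0.97 without CT-26 tumor 100 replicate 3. The last fell to 0.98, 0.85 and 0.92 without CT-26 tumor 800 replicate 2, 3 or 4, so that it was no longer called. Reads of Acta2 could be shared with other actins of near-identical coding sequence, and the counting of such reads is not given in the sources used here. The skeletal actin Acta1 ranged from 0.0771 to 643 FPKM in Colon 26 tumors, and the tumor with the most muscle markers (Colon 26 tumor 400 replicate 1) had 25.5 FPKM of Acta2, inside the 20.2 to 30.6 of its group. Actg1 stood at 608 to 952 FPKM in CT-26 tumors and 1144 to 1385 in Colon 26 tumors, and Actg2 at 0.0767 to 0.682 and 0.725 to 1.86. Actb stood the other way, at 1452 to 2063 and 1225 to 1467, and Actc1 was at 0.312 at most. The part of shared reads in the Acta2 values was not tested.

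Because Pdgfra, Acta2 and Postn were the genes called higher in Colon 26 tumors at all 3 sizes, their start regions are shown, 120 bases before to 30 bases from the start site, as RefSeq gives it on GRCm38.p6. Of the 10 genes, 5 had an entry at hand (Acta2, Pdgfra, Pdpn, Postn and Rgs5). Acta2 lies on the minus strand of chromosome 19 and its region is chr19:34255344-34255493, that of Postn is chr3:54360987-54361136 on the plus strand, and that of Pdgfra is chr5:75152131-75152280 on the plus strand. Capitals mark matches, on either strand, to the CArG box (the site named for serum response factor, with at most 1 mismatch in its core) and to the letters TATANAA of a TATA box, where N is any base and both strands were searched.
Acta2: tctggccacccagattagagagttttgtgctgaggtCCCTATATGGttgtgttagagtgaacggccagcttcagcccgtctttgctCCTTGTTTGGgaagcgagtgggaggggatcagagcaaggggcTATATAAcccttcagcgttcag
Postn: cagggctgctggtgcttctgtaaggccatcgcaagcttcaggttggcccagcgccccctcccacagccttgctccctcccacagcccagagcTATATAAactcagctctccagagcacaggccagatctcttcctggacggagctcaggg
Pdgfra: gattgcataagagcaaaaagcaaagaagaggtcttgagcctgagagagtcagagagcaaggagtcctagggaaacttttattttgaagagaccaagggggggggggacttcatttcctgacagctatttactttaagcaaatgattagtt

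In windows of 250 bases before to 50 after the start, Acta2 held 2 CArG matches and 1 TATANAA match, Postn held 2 TATANAA matches, of which 1 lies in the stretch printed, and Pdgfra held neither. The TATANAA match of Acta2 lies after the start site used, at bases 8 to 14 from it. The printed match of Postn lies before its start site, at -28 to -22. Of the 32851 promoters in the RefSeq table, 9.98% held a CArG match with at most 1 core mismatch and 11.3% held TATANAA. The matches are letters in a window and no measure of binding.

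Decorin and lumican are relatives in the family of small leucine-rich proteoglycans, and their genes are neighbours on the plus strand of chromosome 10, Dcn at chr10:97479609-97518143 and Lum at chr10:97565128-97572703 (GRCm38), 46984 bases apart. In the tumors they differed in opposite directions. Dcn at 400 mm3 was 209, 212, 199 and 111 FPKM in CT-26 and 36.6, 40.3, 35.6 and 28.3 in Colon 26. The groups were far apart, and the log2 fold change was -2.45 (SE 0.23, adjusted p 7.1e-05).

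At 800 mm3 Dcn was 93.7 to 137 FPKM in CT-26 and 16.1 to 41.7 in Colon 26, a log2 fold change of -2.09 (SE 0.31, adjusted p 3.0e-04). At 100 mm3 the groups overlapped, because CT-26 tumor 100 replicate 1 had 49.9 FPKM beside 112 to 123 in the other 3, and Colon 26 tumor 100 replicate 3 had 54.8. The fold change was then -1.20 (SE 0.25, adjusted p 0.0036). It was not called (-0.79, adjusted p 0.20) once the 7 tumors with 150 FPKM or more of 6 skeletal muscle markers were left out, which leaves 2 tumors a group at this size.

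Lum, which like decorin regulates collagen fibrils, was 3.03, 5.70, 6.27 and 10.8 FPKM in the small CT-26 tumors and 15.2, 11.8, 17.4 and 15.5 in those of Colon 26. Colon 26 was higher at 100 mm3 (log2 fold change 1.18, SE 0.31, adjusted p 0.012) and at 400 mm3 (1.40, SE 0.47, adjusted p 0.037). At 800 mm3 the groups overlapped, at 3.94 to 8.08 against 3.34 to 10.6 FPKM, with 0.31 (SE 0.36, adjusted p 0.50). The call at 100 mm3 was lost without CT-26 tumor 100 replicate 1 (log2 fold change 0.97).

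The ratio of Dcn to Lum, both in FPKM, therefore separated the models in every tumor. It ranged from 11.4 to 142 in CT-26 (median 20.8, n = 12) and from 2.66 to 4.83 in Colon 26 (median 3.57, n = 12). The ratio was chosen after the values were seen, so it is given without a test. The highest ratios, 142 and 92.5, came from CT-26 tumor 400 replicates 3 and 1, the tumors with the least Lum (1.40 and 2.26 FPKM) and the least Postn.

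**Figure D4:**
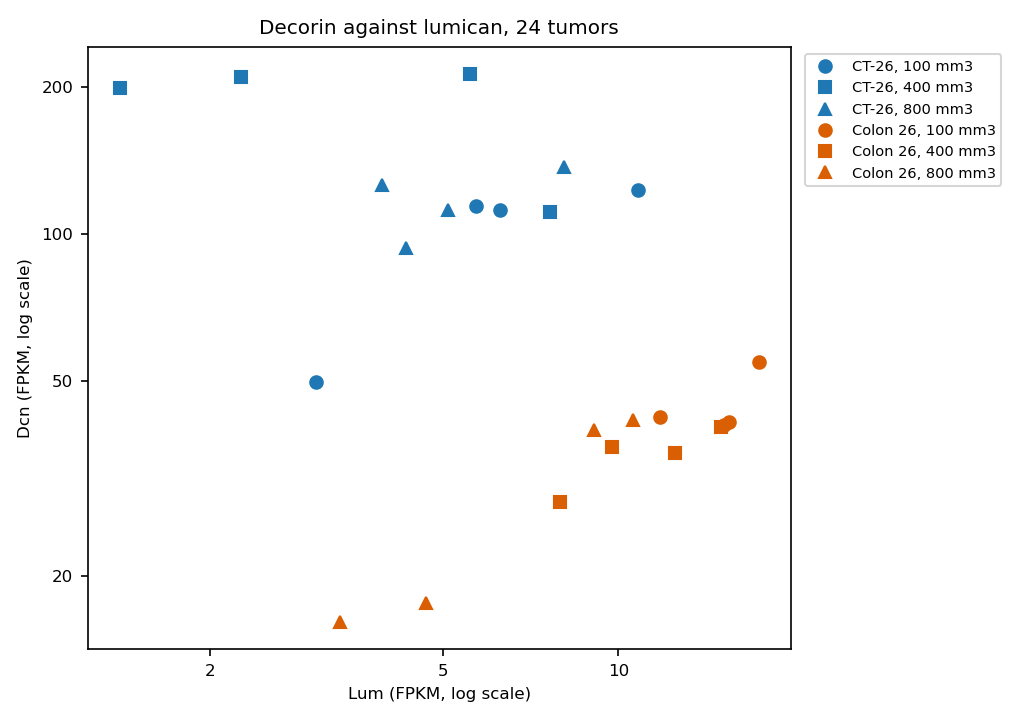
Dcn against Lum in FPKM, both on log scales, 1 point per tumor, with blue for CT-26, orange for Colon 26 and symbols for size. Every CT-26 tumor has a Dcn to Lum ratio of at least 11.4 and every Colon 26 tumor one of at most 4.83, so the models form separate bands, with Dcn and Lum moving together along the band of Colon 26.

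The remaining genes gave no called difference between the tumors of the models. Rgs5 was 2.88 to 15.6 FPKM in CT-26 tumors and 5.91 to 11.7 in Colon 26 tumors, with log2 fold changes of -0.17 (SE 0.46), 0.60 (SE 0.32) and 0.17 (SE 0.14) from the smallest to the largest size. At 800 mm3 an interval of 2 SE to either side ran from -0.11 to 0.44, and at 100 mm3 it was wide, from -1.10 to 0.75. Fap gave 0.38 (SE 0.33), 0.24 (SE 0.38) and 0.61 (SE 0.29), and at 0.374 to 1.82 FPKM it was the lowest of the 10 genes in tumors.

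Pdgfrb, the pericyte receptor, gave log2 fold changes of -0.26 (SE 0.20) at 100 mm3 and -0.18 (SE 0.13) at 800 mm3. At 400 mm3 it gave 0.71 (SE 0.26, adjusted p 0.050), below the fold limit, and the Colon 26 tumors were uneven, at 15.9, 40.4, 28.9 and 30.5 FPKM. The lowest of these, replicate 1, is the tumor with the most muscle markers, and without the muscle-rich tumors the value was 1.04 (adjusted p 0.0010), which would be called.

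Thy1 gave 0.37 (SE 0.15, adjusted p 0.062) and 0.38 (SE 0.16, adjusted p 0.081) at 100 and 400 mm3, under the fold limit, and 0.01 (SE 0.14, adjusted p 0.97) at 800 mm3. T cells also carry THY1 in mice. The summed FPKM of 7 T cell markers was 7.72 to 46.6 in CT-26 tumors and 3.69 to 19.9 in Colon 26 tumors. In culture it was 1.46 to 1.78 in CT-26 and 2.95 to 3.49 in Colon 26, of which Lck had means of 1.56 and 3.16. At 100, 400 and 800 mm3, 1, 6 and 0 of the 7 were called lower in Colon 26. Of all genes tested 7.06%, 7.79% and 7.62% were called lower. The marker called at 100 mm3 was Lck. The part of T cells in the Thy1 values was not tested. Pdpn gave 0.20 (SE 0.10), -0.48 (SE 0.23) and 0.03 (SE 0.10), with adjusted p of 0.13, 0.13 and 0.79.

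The larger tumors were then set against the smallest ones of their model. No gene of the 10 was called between 100 mm3 and 400 or 800 mm3 in either model by edgeR, beside 1.14% and 0% of all genes tested in CT-26 and 0.0830% and 0.338% in Colon 26. At an unadjusted p under 0.05 there were 2 and 0 of the 10 in CT-26 and 3 and 4 in Colon 26. Of all genes tested, 3886 and 1697 of 15646 in CT-26 and 2123 and 2542 of 15666 in Colon 26 were under it. DESeq2 called none of the 10 in 3 of these 4 comparisons and 1, Lum, in Colon 26 from 100 to 800 mm3, and limma on log2 FPKM called none in any of the 4. For all genes in CT-26 from 100 to 800 mm3, where edgeR called 0, 1697 had an unadjusted p under 0.05 and DESeq2 called 38.

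The largest values were those of Dcn in CT-26 from 100 to 400 mm3, 0.94 (SE 0.27, adjusted p 0.074), just under the fold limit, and of Lum in Colon 26 from 100 to 800 mm3, -1.11 (SE 0.33, adjusted p 0.14). Dcn was called (adjusted p 0.021) without CT-26 tumor 400 replicate 4, whose 111 FPKM stood apart from the 199 to 212 of the other 3, and also without CT-26 tumor 100 replicate 2 (adjusted p 0.065). Lum was called without Colon 26 tumor 400 replicate 1 (-1.11, adjusted p 0.076) or Colon 26 tumor 800 replicate 2 (-1.38, adjusted p 0.081). In the same Colon 26 comparison Thy1 gave -0.42 (SE 0.12), Acta2 -0.51 (SE 0.15) and Dcn -0.64 (SE 0.28), with adjusted p of 0.13, 0.14 and 0.29. None of the 10 genes was called for a model difference that changed from 100 to 800 mm3 (0.0308% of all genes tested were). None had an unadjusted p under 0.05, beside 2031 of all 16238 genes tested. DESeq2 and limma called none of the 10 there either.

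The ligands of the receptors were read beside them. Pdgfc, which acts through PDGFRA, was higher in Colon 26 at every step, with 26.1 to 28.1 FPKM against 5.07 to 5.63 in culture (log2 fold change 2.33, SE 0.05, adjusted p 5.1e-16) and differences of 2.28 (SE 0.21), 2.68 (SE 0.09) and 2.23 (SE 0.21) in tumors. Pdgfa did not pass the fold limit in any of the 4 comparisons, with values of 0.17, 0.44, 0.70 and 0.77.

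Pdgfb, which endothelial cells make to draw pericytes, had at most 6 counts in any culture and 2.08 to 9.01 FPKM in tumors. It was at least 130-fold higher in small CT-26 tumors than in culture, where every library had 3 counts or fewer, and rose by 7.82 on the log2 scale (SE 0.23, adjusted p 9.9e-09) in Colon 26. Pdgfd was at 0 counts in all cultures and at 0.206 to 0.786 FPKM in tumors, and neither ligand was called between the models. At 800 mm3 Pdgfb passed the adjusted p but not the fold limit, higher in Colon 26 (0.54, SE 0.08, adjusted p 2.3e-04).

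Of 16 other pericyte genes, all were tested in tumors and few differed between the models. The counts called higher in Colon 26 were 2, 2 and 1 at 100, 400 and 800 mm3 (6.17%, 6.48% and 6.50% of all genes), with 1 called lower at 400 mm3 (7.79%), and the medians were 0.24, 0.47 and 0.35 beside 0.00, 0.03 and -0.01 over all genes tested. Kcnj8 and Abcc9, the subunits of the potassium channel of pericytes, had means of 1.21 to 3.14 and 0.783 to 1.58 FPKM over the 6 tumor groups, with none called. Tbx18, a transcription factor of pericytes, was called higher at 100 mm3 (1.18, SE 0.15) and Heyl, a Notch target, at 400 mm3 (1.30, SE 0.48), and the gene called lower was Angpt1 (-1.22, SE 0.36), the ligand of the endothelial receptor TIE2. In culture Mcam was called higher in Colon 26 (2.28, SE 0.44) and Steap4 lower (-3.53, SE 0.63), both at 0.229 FPKM or less. From culture to small tumors 15 of 15 tested were called higher in CT-26 and 14 of 15 in Colon 26 (22.2% and 20.8% of all genes tested). Of these 15, 9 in CT-26 and 11 in Colon 26 had 3 counts or fewer in every culture, so their rises are lower bounds. With the bounds in place the median log2 fold change was 2.91 in CT-26 and 4.68 in Colon 26, and without them 5.59 and 6.91.

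The largest difference in this list was that of Cspg4, the NG2 proteoglycan by which pericytes are often stained. It was at 9.90 to 10.8 FPKM in Colon 26 cultures and 6.18 to 10.8 in Colon 26 tumors. In CT-26 it was 0.0103 to 0.0518 in culture and 0.144 to 0.758 in tumors. The log2 fold change of Colon 26 over CT-26 was 8.12 in culture (SE 0.12, adjusted p 8.4e-18), and 4.33 (SE 0.38), 5.01 (SE 0.31) and 4.29 (SE 0.15) in the tumors. The Colon 26 cells thus expressed it in culture, and it was the only one of the 16 genes called between the models at all 3 sizes.

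Most of the 16 other contractile genes gave no called difference. In Colon 26 tumors 4 of 15 tested were called higher at 100 mm3 (6.17% of all genes), 5 of 15 at 400 mm3 (6.48%) and 3 of 14 at 800 mm3 (6.50%), where 1 was called lower (7.62% of all genes), with medians of 0.52, 0.94 and 0.39. Tagln (transgelin, an actin-binding protein of smooth muscle) stood at 15.5 to 27.5 FPKM in Colon 26 tumors and 2.24 to 8.81 in CT-26 tumors, with log2 fold changes of 1.67 (SE 0.26), 2.29 (SE 0.29) and 2.23 (SE 0.27). In culture it was no higher than 0.347 FPKM. Tpm2, Actg2 and Cnn1 were also called higher, Cnn1 at 100 and 400 mm3 on 42 counts at most. Tpm2 was already higher in the cultured Colon 26 cells, at a mean of 54.2 against 10.9 FPKM (log2 fold change 2.39, SE 0.05, adjusted p 4.1e-16).

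The gene called lower was Des (-2.21, SE 0.43, adjusted p 0.0016), the desmin of muscle. It was also lower in Colon 26 culture, at a mean of 0.339 against 2.05 FPKM (-2.60, SE 0.15, adjusted p 8.4e-11). The 6 skeletal muscle markers summed to 10.9 to 173 FPKM in the CT-26 tumors of that size and to 2.36 to 2.63 in those of Colon 26, and 6 of 6 were called lower there. At 100 mm3 none of the 6 was called, and at 400 mm3 none of the 4 that could be tested, with sums of 2.37 to 329 and 1.73 to 215 FPKM in CT-26 and 88.1 to 834 and 2.29 to 1735 in Colon 26. Without the muscle-rich tumors Acta2 gave 1.44, 1.46 and 0.85, the last no longer called (adjusted p 0.083), and Pdgfra, Postn and Dcn were still called at 400 and 800 mm3.

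Among 30 other fibroblast genes, 29 were tested in tumors, and 11, 9 and 11 were called higher in Colon 26 with 1, 2 and 1 called lower, from the smallest to the largest size. Of all genes tested 6.17%, 6.48% and 6.50% were called higher and 7.06%, 7.79% and 7.62% lower. The medians were 0.70, 0.82 and 0.78. Lrrc15, a membrane protein of matrix-making fibroblasts, was among those with the largest difference at every size (log2 fold changes 2.76, 2.67 and 2.06) and was hardly detected in culture, at 4 counts or fewer. Loxl1, a collagen cross-linker, differed by 2.12, 2.44 and 2.06, and Lox by 2.28 at 800 mm3. Loxl1 was also expressed by the Colon 26 cells, at 9.08 to 9.68 FPKM in culture. Prrx1, a transcription factor of mesenchyme, was lower in Colon 26 tumors throughout (-1.34, -1.59 and -1.17), at 18.0 to 23.7 against 44.0 to 64.1 FPKM. Dpt (dermatopontin) was called lower at 400 mm3 (-1.15, SE 0.39). In culture Loxl1 (6.29, SE 0.11) and Serpinf1 (5.69, SE 0.05) were the genes with the largest rise in Colon 26, and Pi16 (-3.42, SE 0.28) and Tnc (-3.04, SE 0.29) those with the largest fall. Tnc, the matricellular tenascin C, was the only gene of the related lists called with size, lower in Colon 26 at 800 than at 100 mm3 (-1.02, SE 0.25, adjusted p 0.086).

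Within the family of Dcn and Lum, members differed in both directions. Of 9 further small leucine-rich proteoglycans 6 were tested in the tumor comparisons, and 4, 2 and 4 were called lower in Colon 26, with 1 called higher at 400 mm3. Of all genes tested 7.06%, 7.79% and 7.62% were called lower and 6.48% higher at 400 mm3. Aspn (asporin) gave log2 fold changes of -3.20, -2.18 and -2.31, at 2.47 to 6.08 FPKM in Colon 26 tumors and 13.5 to 54.9 in CT-26 tumors. Prelp was also called at every size, with -2.18, -1.76 and -2.05. The gene called higher was Fmod (fibromodulin, 2.84, SE 1.20). In culture Omd was called higher in Colon 26 (2.10, SE 0.11) and Prelp lower (-1.64, SE 0.11). Bgn (biglycan), by contrast, gave 0.56, 1.07 and 0.82, with adjusted p of 0.024, 0.10 (just over the limit) and 0.0067, none called. Kera and Epyc, which follow Lum on the chromosome, were too low to test.

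Relatives of Fap gave no called difference in tumors. None of 5 peptidases (Dpp4, Dpp7, Dpp8, Dpp9 and Prep) was called between the models at any size, at medians of 0.26, 0.22 and 0.23. Dpp8 passed the adjusted p but not the fold limit, with 0.26, 0.27 and 0.23 (adjusted p 0.011, 0.027 and 0.0038). In culture Dpp7 was lower in Colon 26 (-1.29, SE 0.08, adjusted p 2.4e-10).

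The related lists also held genes that rose from culture to the small tumors. Among the fibroblast genes 20 of 29 were called higher in CT-26 and 19 of 29 in Colon 26 (22.2% and 20.8% of all genes). Tnc (log2 fold change 11.15, SE 0.20) and Lox (10.27, SE 0.16) led the fitted changes in Colon 26. In CT-26 Cthrc1 and Fbln1 led them (at least 26.8-fold and at least 22.5-fold, from 0 counts in culture). A fitted change from 0 counts has no fixed size. The lower bounds of Lox and Dpt in CT-26 were larger, at least 259-fold and at least 157-fold. Of the contractile genes Myl9 and Tagln led in both models, at least 28.0-fold for Myl9 and 4.65 (SE 0.42) for Tagln in CT-26, and 6.46 (SE 0.45) and 6.12 (SE 0.15) in Colon 26. Abcc9 (at least 80.2-fold) and Mcam (8.73, SE 0.86) led the fitted changes of the pericyte genes in CT-26. Kcnj8 and Abcc9 (at least 59.5-fold and at least 114-fold) did so in Colon 26. There Mcam also rose, from a mean of 0.215 FPKM in culture to 18.8 in the small tumors.

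Aspn rose at least 698-fold in CT-26 and at least 119-fold in Colon 26, and Bgn by 6.45 (SE 0.27) and 7.70 (SE 0.10) on the log2 scale. Ogn was called lower in Colon 26 (-1.25, SE 0.18). Dpp4 rose by 3.80 (SE 0.58) in CT-26 and at least 26.2-fold in Colon 26, where Dpp7 rose by 1.05 (SE 0.15). The step differed between the models, Colon 26 minus CT-26, for Pi16 (5.14), Tnc (4.78), Serpinf1 (-4.99), Des (3.72), Actg2 (1.90), Cspg4 (-3.78), Bgn (1.20), Omd (-3.21), Ogn (-1.77) and Dpp7 (1.69). Fbln1, Steap4, Angpt1 and Dpp4 were called too, with 1 of the lines at 3 counts or fewer in every culture.

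How the genes varied from tumor to tumor was described by Pearson correlation of log2 CPM over the 24 tumors after each group's mean was subtracted. These coefficients are descriptions without a test, and libraries share depth and composition. Rgs5 was closest to Ptprb, an endothelial phosphatase, at 0.91, Olfml2a at 0.91 and C130074G19Rik at 0.90. Acta2 was closest to Tagln at 0.90 and to C1qtnf3 and Myl9 at 0.81. Postn was closest to Col5a2 at 0.97, Bgn at 0.96 and Fbn1 at 0.96, genes of the fibrillar matrix, and Fap to Nrep at 0.94 and Col3a1 at 0.91.

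Others had partners outside the stroma lists. Pdpn was closest to Arg1 at 0.86, Ttc39c at 0.85 and Arg2 at 0.83, the arginases being enzymes of myeloid cells among others. Thy1 was closest to Galnt6 at 0.82 and Pdgfra to Tgfbr1 at 0.86. With marker sums Thy1 gave 0.59 for T cells and 0.51 for leukocytes and macrophages. Dcn had the weakest leading partner, Sdk1 at 0.80. Among the 10 themselves, Postn and Lum gave 0.74, Fap and Rgs5 0.69, Fap and Postn 0.68, and Pdgfra and Pdgfrb 0.67, whereas Pdpn ran against Pdgfrb and Rgs5, at -0.54 for both.

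Dcn and Lum gave 0.08 in the 12 CT-26 tumors and 0.93 in the 12 Colon 26 tumors, and Dcn and Postn gave -0.21 and 0.74. Whether these coefficients differ between the models was not tested.

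**Figure D5:**
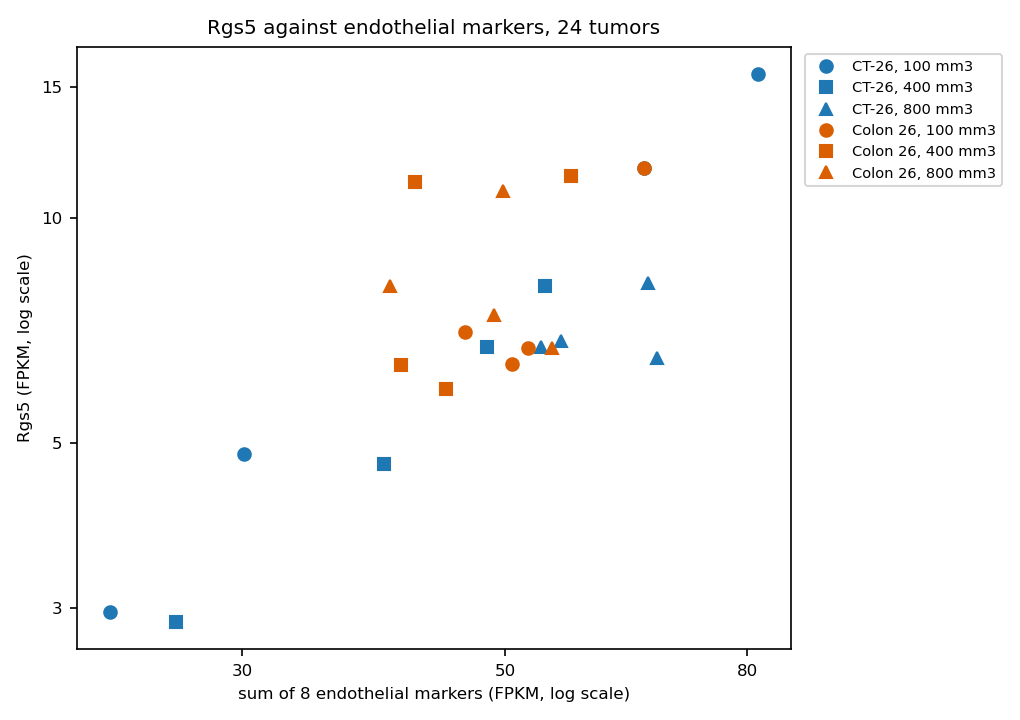
Rgs5 in FPKM against the summed FPKM of 8 endothelial markers, both on log scales, 1 point per tumor, with blue for CT-26, orange for Colon 26 and symbols for size. The 4 CT-26 tumors with the least endothelial signal are those with the least Rgs5, 2.88 to 4.83 FPKM, and the highest point of both axes is a CT-26 tumor of 100 mm3 with 15.6 FPKM of Rgs5.

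The sum of 8 endothelial markers (Pecam1, Cdh5, Kdr, Tek, Emcn, Cldn5, Esam and Tie1) was 23.2 to 81.7 FPKM in CT-26 tumors, at most 65.4 (median 49.4) in Colon 26 tumors and at most 0.183 in culture. None of the 8 was called between the models at any size. At 800 mm3, however, 5 of them passed the adjusted p below the fold limit, all lower in Colon 26: Pecam1 (-0.58, adjusted p 0.0010), Kdr (-0.58, 0.0045), Tie1 (-0.45, 0.014), Esam (-0.41, 0.016) and Cdh5 (-0.29, 0.061). At 400 mm3 Cldn5 passed it the other way, higher in Colon 26 (0.85, SE 0.31, adjusted p 0.052). Over the 24 tumors, with group means subtracted, Rgs5 and this sum gave Pearson's r of 0.88 and Spearman's rho of 0.71, and r was 0.78 without the 2 tumors farthest from the median of the sum. Within the models r was 0.98 in CT-26 and 0.52 in Colon 26, 12 tumors each. The same sum gave 0.73 with Fap, 0.63 with Postn, 0.56 with Pdgfrb and with Lum, and 0.55 with Pdgfra. It gave 0.21 with Acta2, 0.17 with Dcn, -0.07 with Thy1 and -0.46 with Pdpn. Sums of other markers gave similar values for Fap, at 0.68 (Schwann cell), 0.63 (lymphatic endothelial) and 0.63 (adipocyte). For Postn they gave 0.63 (leukocyte and macrophage) and 0.62 (Schwann cell).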

How the data were processed

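RNA-seq libraries of 6 cultures and 24 tumors were grouped by model, tissue and tumor size as their labels give them. The authors counted reads on Ensembl genes with Array Studio and deposited estimated counts, which were not normalized and of which 22.6% of the non-zero values were not whole, and FPKM. The submitters' processing notes name DESeq2 1.24.0. The aligner, genome build and handling of strand are not given in the sources used here.

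The estimated counts were rounded, although the design had assumed raw counts, and tested with edgeR 4.0.16 (R 4.3.3) by TMM, the filterByExpr filter and the quasi-likelihood test, which was tested on simulated data. Comparisons used the libraries of both groups, all 12 tumors of a model for size, and interaction terms for differences between models. The SE of an edgeR value was derived from its test, as the absolute log2 fold change over the square root of the F statistic. It is approximate, and unreliable for genes near 0 counts in a group. The thresholds are those in the study's methods, adjusted p no higher than 0.1 with a log2 fold change of 1 or more in either direction. Alternatives were limma 3.58.1 on log2(FPKM + 1) and log2(FPKM + 0.1), DESeq2 1.42.0, other scalings and filters, and leaving out each library. Levels and correlations used Python 3.11.15, numpy 2.4.6 and pandas 2.3.3. Symbols and coordinates came from GENCODE on GRCm38, with the same identifier version for 9 of the 10 genes.

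Where no library of a group had more than 3 counts, the fold against that group was set at 3 counts per library and is a lower bound, which covers counting error only. Replicates of 42 pairs all differed by more than sampling noise (chi-square per degree of freedom 2.91 to 73.9). Exons of Pdgfra overlap 2 antisense genes (Gm42802 and Gm42803) and Mir7025, and without known strand handling their reads cannot be told apart.

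The 10 genes and all gene lists were chosen with earlier results of these data known. The text names the 10 genes, and of each related list the 2 called genes with the largest rise and the 2 with the largest fall per comparison, and the PDGF ligands in full. Other genes named (Bgn, Kera, Epyc, Kcnj8, Abcc9, Dpp8, Acta1, Actb, Actc1, Actg1, Lck, Cd68, Fabp4) were chosen after their values were seen. For likeness the 3 genes with the highest correlation were taken among 13503 genes with a mean CPM of at least 1 in tumors. Outcomes of antibody treatment were not analysed here.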

Additional observations from a re-analysis of the deposited data

Results flagged for a closer look

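The step from culture to tumors of 100 mm3 differed between the models for 4 of the genes, by the interaction test of edgeR given in the report. On the log2 scale the difference, Colon 26 minus CT-26, was -1.38 for Pdgfrb, 4.11 for Postn, 4.07 for Dcn and 2.46 for Pdpn.

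A library stood apart from the other 3 of its group, by the gap to its nearest neighbour as a share of the range, in 5 of the 60 groups of 4 tumors looked at, where chance alone flags about 1 in 20. For Dcn these were the lowest CT-26 tumor of 100 mm3 (49.9 FPKM), the lowest CT-26 tumor of 400 mm3 (111 FPKM) and the highest Colon 26 tumor of 100 mm3 (54.8 FPKM). For Thy1 and Rgs5 it was the highest Colon 26 tumor of 100 mm3, at 35.7 and 11.7 FPKM, and both values came from replicate 1.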

How the results depend on the processing

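No paired analysis was possible because the labels carry no replicate numbers shared between groups. Of 2430 fold changes of the 10 genes recomputed under alternatives, 2388 kept direction and side of the threshold, 21 lost a call, 21 gained one and 0 called values reversed, while 77 changed sign, none of them called. The call changes that bear on a statement are given in the report, and their causes were not tested.

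When no minimum fold was asked, the counts of all genes called became 11842 in culture, 8710, 7963 and 9213 between tumors of 100, 400 and 800 mm3, 11601 (CT-26) and 12581 (Colon 26) for small tumors against culture, and 8421 for the model difference in that step. In the size comparisons they became 1838 (CT-26, 400 mm3), 53 and 297 (Colon 26, 400 and 800 mm3) and 13 (model difference), and 1 of the 10 genes was then called in CT-26 at 400 mm3. With at least 10 counts in every library the counts were 1996, 1356 and 1433 in culture and tumors of 100 and 400 mm3, 2527 and 1818 against culture, 1487 for the model difference, 116 in CT-26 at 400 mm3 and 0 for the model difference by size. Fewer of the 10 genes could then be tested, and 2 (culture), 3 (CT-26), 3 (Colon 26) and 2 (model difference) were called. With limma on log2(FPKM + 1) they were 1520, 846, 928, 911, 2632, 1942, 1228, 16, 5, 13 and 1 in the order of the report without CT-26 at 800 mm3, and with a pseudocount of 0.1 they were 52 and 2 (CT-26), 6 (Colon 26, 400 mm3) and 8. DESeq2 gave 38 (CT-26, 800 mm3), 29 and 111 (Colon 26) and 114, and called 1 of the 10 genes in Colon 26 at 800 mm3. A fit of all 30 libraries gave 379 and 92 (CT-26), 25 and 100 (Colon 26) and 39. An adjusted p of at most 0.05 gave 32 (CT-26, 400 mm3), 5 and 28 (Colon 26) and 2. With no filter there were 3469 between tumors of 800 mm3, 1 in CT-26 at 800 mm3 and 3 for the model difference by size, which was also 3 with library size alone. Without the muscle-rich tumors, an alternative chosen after seeing the data, there were 237 and 131 (Colon 26, 400 and 800 mm3) and 10, and 1 of the 10 genes, Dcn, was called in CT-26 at 400 mm3. At 5 FPKM instead of 1, 2 genes counted as expressed in CT-26 culture.

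With 1 library left out at a time, counts ran from 3383 to 3595 in culture, from 2045 to 2269, 2152 to 2466 and 2254 to 2479 between tumors, from 4638 to 5253 and 3993 to 4486 against culture and from 2761 to 2985 for the model difference. For size they ran from 0 to 498 and 0 to 5 in CT-26, from 4 to 377 and 15 to 261 in Colon 26, and from 2 to 128 for the model difference. Of the 10 genes 4 to 5 were called in culture, 4 to 5, 4 to 5 and 3 to 4 between tumors, 8 to 10 and 9 to 9 against culture, 4 to 5 for the model difference, and 0 to 1, 0 to 0, 0 to 0, 0 to 1 and 0 to 0 by size.

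With 3 or 4 libraries a group, SEs reached 0.71 for a member between tumors (Postn at 400 mm3). Differences of genes near the floor in culture rest on few counts.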

Other observations

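The order of the 8 groups was read for each gene from its mean FPKM, and neighbours in that order whose libraries overlap are not separated by these data. For Pdgfra the 3 Colon 26 tumor groups came first, at means of 17.4 ± 1.63, 16.7 ± 2.11 and 15.9 ± 1.04 FPKM (SD, n = 4), overlapping each other and clear of the next group, CT-26 tumors of 400 mm3 at 7.01 ± 1.06. For Postn the same 3 groups came first, at 39.9 ± 4.07, 38.5 ± 4.74 and 33.3 ± 10.6 FPKM, and CT-26 tumors of 400 mm3 followed at 10.7 ± 9.71. For Dcn the 3 CT-26 tumor groups led, at 183 ± 47.9, 117 ± 18.6 and 99.9 ± 33.7 FPKM. For Pdpn it was a culture that led, CT-26 at 55.8 ± 2.52 FPKM (SD, n = 3), clear of every tumor group, and the other culture that came last.

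Markers of other tissues were uneven. The 5 keratinocyte markers summed to 42.9 FPKM in 1 CT-26 tumor of 800 mm3, against a median of 2.97 over the 12 CT-26 tumors. The 5 leukocyte and macrophage markers summed to 74.6 to 324 FPKM in CT-26 tumors and 169 to 311 in Colon 26 tumors, and to 48.6 to 52.5 in CT-26 culture and 2.78 to 3.65 in Colon 26 culture. In CT-26 culture Cd68 alone had a mean of 49.6 FPKM, and each of the others was at 0.162 FPKM or less. The sums ran from 6.51 to 61.2 FPKM for 5 adipocyte markers and from 0.640 to 23.7 for 4 lymphatic endothelial markers over the 24 tumors. Most of the adipocyte sum was Fabp4, with means of 14.5 to 44.4 FPKM in the tumor groups, where no other of the 5 had a mean above 1.65. For 4 Schwann cell markers the models did not overlap, at 1.02 to 2.36 FPKM in CT-26 tumors and 2.42 to 5.96 in Colon 26 tumors. Their part in the values of the 10 genes was not tested.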
